A study of Mus musculus with 24 samples.

Results

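The genes described here are 10 genes of the fasting and glucocorticoid response: Igfbp1, Irs2, Pck1, Tat, Ppargc1a, Pdk4, Angptl4, Lpin1, Fkbp5 and Tsc22d3. They were chosen by name from knowledge of the pathway, with earlier results of these data known. Counts of these genes beside the shares over all genes are therefore description and no independent test. Each was matched by symbol to a single row, which makes 10 of the 33272 genes of the deposited table. All 10 passed the filter on low counts in liver and in kidney. RNA of both organs of C57BL/6 mice was sequenced in 4 arms of 3 libraries, 24 libraries in all. The combination arm received CBLB502 at 0.2 mg/kg and, 30 min later, cisplatin at 20 mg/kg into the peritoneum. The cisplatin arm received the drug at that dose without CBLB502, and the CBLB502 arm received CBLB502 without the drug. Organs of these 3 arms were taken at 72 h, and control mice are labelled as not treated. Cisplatin is a platinum drug that damages DNA and injures the kidney tubule. CBLB502 (entolimod) is a protein derived from bacterial flagellin that activates the receptor TLR5. The labels give neither age, sex, feeding state nor clock time, and they name no vehicle, dose or time for the controls. Whether the libraries of an arm stem from different mice is not stated, so the p-values below rest on the spread among libraries alone, and some of that spread may be technical.

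In fasting, insulin falls while glucagon and glucocorticoids rise. The liver, and to a lesser degree the kidney, then release glucose made from amino acids, lactate and glycerol, while other tissues burn fat. Glucocorticoids act through a nuclear receptor that binds DNA as a dimer. Insulin represses several of the same genes by keeping FOXO transcription factors out of the nucleus, and glucagon raises them through cyclic AMP. Adrenal glucocorticoids also rise in illness and loss of appetite, and hormones, food intake and body weight were not measured in the files used here.

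Levels are counts per M counts (CPM; M for mega) on scaled library sizes, folds are ratios of group mean CPM, and log2 fold changes (± SE) come from edgeR's quasi-likelihood test. A gene is said to have risen or fallen where the p adjusted over all tested genes was under 0.05, which was the call rule for 17931 genes in liver and 20341 in kidney. Libraries held 40.58 to 77.54 M counts in liver and 52.85 to 77.1 M counts in kidney. Sampling noise is small for members with many counts and larger where counts are few, as for Ppargc1a in control liver (15 to 27 counts). Control libraries stood apart from all treated ones: mitochondrial genes took 2.567% to 7.105% of counts in treated liver, against 69.3% to 72.24% in control liver, and 6.316% to 14.22% in treated kidney, against 60.69% to 68.96% in control kidney. Outside these genes and 7 nuclear copies of mitochondrial sequence, treated libraries kept at least 44 M counts, against 2.819 to 10.14 M counts in control libraries. Treatment and kind of library cannot be told apart in a comparison with control, and the comparisons among treated arms do not use the control means. With median-of-ratios scaling the median log2 fold change of all liver genes against control moved to −0.16 with the combination, −0.14 with cisplatin and −0.10 with CBLB502, against 0.14, 0.09 and 0.14 with the scaling used here. Called genes in liver then split into 3109 higher and 3703 lower with the combination, against 4264 and 2939 as scaled here, and into 2341 and 2335 with CBLB502, against 3284 and 1700. No called member changed direction with the scaling. Hepatocyte markers (Alb, Apoa1, Ttr, Serpina1a, Cyp2e1) summed to 45954 to 79824 CPM in treated livers, against 12347 to 26005 CPM in control livers, and to 233.4 to 1826 CPM in kidney libraries, and no marker of the hepatocyte or proximal tubule lists was at 0 in its own organ. In bulk tissue, fewer cells of a type and less RNA per cell cannot be told apart.

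The upstream sequences of 6 members hold a short motif tied to 1 of the hormones above, and they are shown as description only. No link between a motif and the arms in which these genes rose was tested. RefSeq promoters of the mouse build GRCm38.p6, 250 bases before to 50 after each start, were found for 9 of the 10 genes. Angptl4 was not among them. Each motif was searched on both strands in all 32851 promoters, and capitals mark the match. A match is a description of letters and not of a bound site. The core of the insulin response sequence, which FOXO factors bind, is CAAAACA, or TGTTTTG on the other strand. This core stood in 6.28% of promoters and 7.2% of genes, beside 2 of the 9 members. It was in Igfbp1 (chr11:7197537-7197786, plus strand) and in Irs2 (chr8:11008930-11009179, minus strand).
Igfbp1: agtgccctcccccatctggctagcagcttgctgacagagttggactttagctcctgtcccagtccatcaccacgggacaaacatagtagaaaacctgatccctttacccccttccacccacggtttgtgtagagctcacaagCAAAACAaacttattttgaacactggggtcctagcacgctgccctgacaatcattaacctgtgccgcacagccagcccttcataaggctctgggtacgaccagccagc
Irs2: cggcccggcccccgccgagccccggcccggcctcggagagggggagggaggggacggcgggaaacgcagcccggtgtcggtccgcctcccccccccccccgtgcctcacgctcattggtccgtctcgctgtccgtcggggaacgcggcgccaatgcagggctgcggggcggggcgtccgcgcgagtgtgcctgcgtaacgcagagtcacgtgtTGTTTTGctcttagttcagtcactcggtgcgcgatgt

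The core of the cyclic AMP response element, ACGTCA or TGACGT, stood in 7.51% of promoters and 8.37% of genes, beside 2 of 9 members. It was in Pck1 (chr2:173152952-173153017, plus strand) from −91 to −86 and in Ppargc1a (chr5:51567740-51567805, minus strand) from −50 to −45, counted from the start site.
Pck1: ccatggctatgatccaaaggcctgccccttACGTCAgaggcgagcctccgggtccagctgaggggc
Ppargc1a: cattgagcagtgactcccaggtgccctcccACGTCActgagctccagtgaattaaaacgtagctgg

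A half-site of the glucocorticoid receptor, AGAACA or TGTTCT, stood in 19% of promoters and 21.3% of genes. The half-site was in 2 of 9 members, which is near the share over all genes. It was in Tsc22d3 (chrX:140600672-140600737, minus strand) from −185 to −180 and in Lpin1 (chr12:16611094-16611159, minus strand) from −163 to −158 of a start site inside the gene.
Tsc22d3: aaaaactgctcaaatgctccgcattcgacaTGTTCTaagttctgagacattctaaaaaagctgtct
Lpin1: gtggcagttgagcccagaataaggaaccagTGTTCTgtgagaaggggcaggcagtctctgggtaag

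The full palindrome of that receptor stood in 0.00913% of promoters and the direct repeat bound by PPAR factors in 0.0396%, and neither was in a member's window. Nor was the FOXO core GTAAACA, read as TGTTTAC on the other strand, which stood in 3.65%. These windows are short and cover no enhancers.

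In liver the rises in the treated arms took in insulin-repressed genes (Igfbp1, Irs2), enzymes (Pck1, Tat), coregulators (Ppargc1a, Lpin1) and the receptor's cochaperone Fkbp5. In the combination against CBLB502, 5 of the 10 genes rose and 0 fell: Igfbp1, Irs2, Pck1, Lpin1 and Fkbp5. Over all tested genes 2.88% were called higher and 3.86% lower. In all 10 genes the 3 combination libraries lay above the 3 CBLB502 libraries, which asks less than a call. The share of all genes separated in this way was not counted, so the shares above are no background for it. The macrophage markers (Clec4f, Vsig4, Adgre1, Cd68, Timd4) summed to 10.4 to 16.05 CPM in combination livers and 66.4 to 130.7 CPM in CBLB502 livers, and the erythroid markers (Alas2, Hba-a1, Hba-a2, Hbb-bs, Hbb-bt) to 11.5 to 17.2 and 173.2 to 189.6 CPM, with none at 0, and their part was not tested. In cisplatin livers these sums were 13.2 to 58.9 and 4.23 to 9.42 CPM. In cisplatin against CBLB502, 5 rose (Igfbp1, Irs2, Tat, Ppargc1a and Fkbp5) and 0 fell, against 7.7% of all genes called higher and 4.84% lower. These comparisons share the CBLB502 libraries. The median log2 fold change of the members was 1.81 with the combination and 1.59 with cisplatin, against 0.02 and −0.06 over all genes. The first count was 2 without CBLB502 library 1, 3 without CBLB502 library 2 or combination library 2, and 8 without cisplatin library 3. The count for cisplatin was 3 without CBLB502 library 3.

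Against control, 6 of the 10 rose in liver with the combination (Igfbp1, Tat, Ppargc1a, Angptl4, Lpin1 and Fkbp5) and 5 with cisplatin (the same without Angptl4), and 0 fell in either. The background was 23.8% higher and 16.4% lower with the combination, and 25.6% higher and 17.5% lower with cisplatin. With CBLB502 alone, 2 rose (Lpin1 and Fkbp5) and 2 fell (Igfbp1 and Irs2), against 18.3% higher and 9.48% lower over all genes. With median-of-ratios scaling and with DESeq2 it was 1 higher and 3 lower: Fkbp5 was not called and Pck1 was lower (−1.04, adjusted p = 0.0221, and −1.03, adjusted p = 0.00188). Over all genes that scaling gave 2341 higher and 2335 lower of 17931, and DESeq2 2944 higher and 3282 lower of 17813. Without control library 1 the count with the combination was 3, and without CBLB502 library 2 or 3 that with CBLB502 was 2. The control libraries are shared by these comparisons.

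In kidney the fuel genes Pdk4, Angptl4 and Pck1 rose in both arms given cisplatin. In the combination against CBLB502, 7 of the 10 rose (Igfbp1, Pck1, Pdk4, Angptl4, Lpin1, Fkbp5 and Tsc22d3) and 0 fell, against 14.9% of all genes called higher and 8.98% lower. The thick limb and distal tubule markers (Slc12a1, Umod, Slc12a3) summed to 932.8 to 1801 CPM in combination kidneys, 674.9 to 2194 CPM in cisplatin kidneys and 2426 to 3757 CPM in CBLB502 kidneys, with none at 0. The erythroid markers summed to 2.09 to 6.73, 1.03 to 4.54 and 164.4 to 718.1 CPM in these arms, and the part of such cells was not tested. In cisplatin against CBLB502, 5 rose (Igfbp1, Pck1, Pdk4, Angptl4 and Fkbp5) and 0 fell, against 18.5% higher and 10.2% lower. The median log2 fold change of the members was 2.14 and 1.54 in these comparisons, against −0.02 and −0.05 over all genes. Against control, 8 rose with the combination (those 7 and Tat) and 7 with cisplatin (those 8 without Tsc22d3), and 0 fell. The background was 21.5% higher and 15% lower with the combination, and 24.1% higher and 15.2% lower with cisplatin. With CBLB502 alone edgeR and DESeq2 each called 0 members against control. Over all genes edgeR called 11.4% higher and 7.77% lower there, and DESeq2 2659 higher and 2664 lower of 20931. Of the 10, only Tat had an unadjusted p under 0.05 there, against 6667 of 20341 genes. The count of called members was 1 without cisplatin library 6 and 2 without control library 3.

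**Figure D1:**
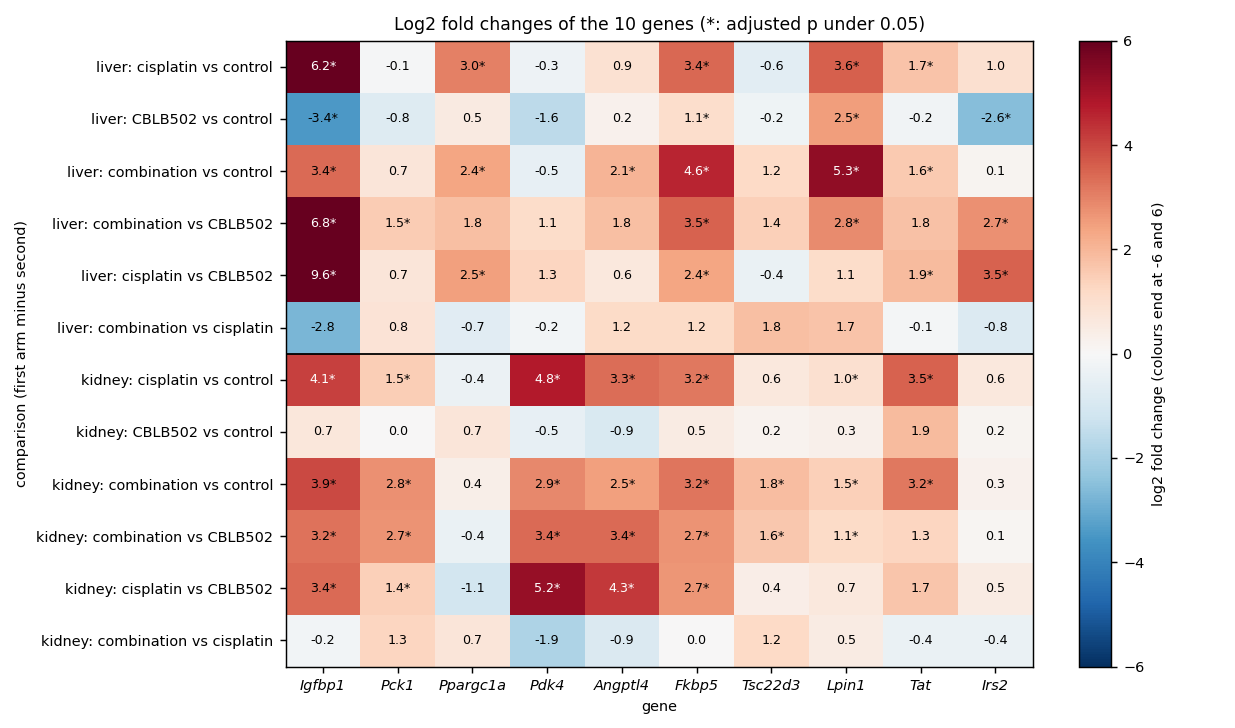
Log2 fold changes (first arm minus second; red higher, blue lower) of the 10 genes in 6 comparisons of liver and of kidney, with an asterisk where the adjusted p was under 0.05. Pdk4 and Angptl4 are above 2 in each kidney comparison of a cisplatin-treated arm with CBLB502 or control, Igfbp1 ranges from −3.42 to 9.61 in liver, and no value of the combination against cisplatin carries an asterisk.

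Igfbp1 (ENSMUSG00000020429, chromosome 11, 7197782 to 7202546) encodes a liver-secreted protein that binds insulin-like growth factors and that insulin represses, and it spanned the widest range in liver. Its CPM were 224.2, 468.1 and 292.3 in combination libraries 1 to 3, 3705, 2900 and 90.6 in cisplatin libraries, 2.365, 2.91 and 3.31 in CBLB502 libraries, and 12.9, 29.6 and 49.7 in control libraries. Cisplatin library 3 lay far under the other cisplatin libraries and below every combination library. All combination and all cisplatin libraries lay above all control libraries, which lay above all CBLB502 libraries. Igfbp1 rose 115-fold in the combination against CBLB502 (log2 fold change 6.84 ± 1.12, adjusted p = 0.00457) and 780-fold in cisplatin against CBLB502 (9.61 ± 1.26, adjusted p = 0.00125). Against control it was 10.7-fold higher with the combination (3.42 ± 0.956, adjusted p = 0.0145), 72.6-fold higher with cisplatin (6.18 ± 1.09, adjusted p = 0.00086) and 10.7-fold lower with CBLB502 (−3.42 ± 0.96, adjusted p = 0.0202). The fall with CBLB502 was lost when any CBLB502 library or control library 3 was left out (adjusted p up to 0.0799). Without control library 1 the rise with the combination over control had an adjusted p of 0.0514. In kidney Igfbp1 was scarce: 7.59, 8.57 and 7.88 CPM in combination libraries 4 to 6, 8.33, 6.14 and 12.45 in cisplatin libraries, 0.475, 1.285 and 0.781 in CBLB502 libraries, and 0, 0 and 1.51 in control libraries, the last from 29 counts. It rose 9.46-fold in the combination against CBLB502 (3.24 ± 0.906, adjusted p = 0.0231) and 10.6-fold in cisplatin against CBLB502 (3.40 ± 0.912, adjusted p = 0.0171). Both calls were lost when some single libraries were left out, with adjusted p up to 0.0992 and 0.0755. Against control the log2 fold changes were 3.94 ± 0.997 with the combination (adjusted p = 0.0092) and 4.10 ± 1 with cisplatin (adjusted p = 0.00725).

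Irs2 (ENSMUSG00000038894, chromosome 8, 10984681 to 11008458) encodes an adaptor that the insulin receptor phosphorylates, and FOXO factors raise it when insulin is low. Liver CPM were 12.8, 31.8 and 22.5 with the combination, 51.45, 57.9 and 8.91 with cisplatin, 2.795, 3.08 and 4.305 with CBLB502, and 10.5, 20.2 and 29.99 in control. The CBLB502 libraries lay below all others, and cisplatin library 3 again lay under both other cisplatin libraries. Irs2 rose 6.59-fold in the combination against CBLB502 (2.72 ± 0.622, adjusted p = 0.0247) and 11.6-fold in cisplatin against CBLB502 (3.54 ± 0.644, adjusted p = 0.00614), and it fell 5.96-fold with CBLB502 against control (−2.58 ± 0.624, adjusted p = 0.00988). The first of these calls was lost in 5 of 12 fits that left out 1 library. In kidney its CPM were 12, 15.6 and 14.4 with the combination, 30.1, 14.7 and 10.15 with cisplatin, 19, 13.25 and 6.90 with CBLB502 and 9.98, 10.9 and 14.2 in control, with overlap between every pair of arms and no call. Irs2 overlaps a noncoding gene on the opposite strand, and the strand setting of the counting was not given, so some counts may belong to that gene.

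Pck1 (ENSMUSG00000027513, chromosome 2, 173153048 to 173159273) encodes cytosolic phosphoenolpyruvate carboxykinase, an early enzyme of gluconeogenesis in liver and kidney cortex. In kidney the combination had 6174, 4981 and 5790 CPM, cisplatin 2501, 1815 and 2657, CBLB502 592, 695.5 and 1300, and control 768.2, 833.3 and 912.6. The 3 combination libraries lay above all cisplatin libraries, which lay above all others, while CBLB502 and control overlapped. Pck1 rose 6.55-fold in the combination against CBLB502 (2.71 ± 0.296, adjusted p = 0.000178) and 2.69-fold in cisplatin against CBLB502 (1.43 ± 0.283, adjusted p = 0.00372). Against control it rose 6.74-fold with the combination (2.75 ± 0.297, adjusted p = 4.16e-05) and 2.77-fold with cisplatin (1.47 ± 0.284, adjusted p = 0.00187). In liver the combination had 2766, 2951 and 2941 CPM, cisplatin 1356, 1648 and 1977, CBLB502 1112, 684.6 and 1233, and control 1471, 1355 and 2429. Here too the combination libraries were the highest and overlapped no other arm. Pck1 rose 2.86-fold in the combination against CBLB502 in liver (1.51 ± 0.301, adjusted p = 0.0124), a call lost without CBLB502 library 1 or 2 or combination library 2. In liver cisplatin against CBLB502 gave 0.72 ± 0.296 (adjusted p = 0.136), and the combination against control 0.72 ± 0.297 (adjusted p = 0.0725). CBLB502 against control gave −0.79 ± 0.297 (adjusted p = 0.0673), with all CBLB502 libraries below all control libraries.

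Tat (ENSMUSG00000001670, chromosome 8, 109990437 to 109999803) encodes tyrosine aminotransferase, a hepatocyte enzyme of amino acid breakdown and a classic glucocorticoid-induced gene. Liver CPM were 1713, 2211 and 1918 with the combination, 2614, 3076 and 741.7 with cisplatin, 560.4, 438.5 and 721.3 with CBLB502, and 286, 828.4 and 874.9 in control. Cisplatin library 3 lay within the control range, and the combination libraries lay above all CBLB502 and control libraries. Tat rose 3.74-fold in cisplatin against CBLB502 (1.903 ± 0.518, adjusted p = 0.0346), 3.23-fold in cisplatin against control (1.69 ± 0.515, adjusted p = 0.0201) and 2.94-fold in the combination against control (1.55 ± 0.513, adjusted p = 0.031). The call against CBLB502 was lost in 8 of 12 fits that left out 1 library, and the calls against control in 3 of 12 each. Treated livers also lay above control livers in the summed hepatocyte markers given above, whose part in the rises against control was not tested. With median-of-ratios scaling the combination against control gave 1.27 (adjusted p = 0.0641). The combination against CBLB502 gave 1.76 ± 0.516 (adjusted p = 0.0666). In kidney Tat was near its floor, with 5.23, 1.49 and 2.41 CPM in the combination, 3.31, 4.70 and 3.91 with cisplatin, 1.42, 1.13 and 1.23 with CBLB502 and 0.254, 0 and 0.779 in control, where a library had at most 15 counts. It rose against control with the combination (3.16 ± 0.846, adjusted p = 0.0124) and with cisplatin (3.54 ± 0.854, adjusted p = 0.00679). The summed hepatocyte markers in kidney were 1359 to 1826 CPM with the combination, 872.9 to 1468 with cisplatin, 583.2 to 949.7 with CBLB502 and 233.4 to 361.5 in control. Most of each sum was Cyp2e1 (means 1291, 863.3, 556.4 and 253.9 CPM in that order of arms). Alb (80.85, 92.66 and 85.92) and Ttr (52.31, 52.93 and 54.57) were nearly level among the treated arms. Serpina1a (82.76, 79.78 and 42.18) and Apoa1 (17.71, 21.93 and 11.77) were lower with CBLB502. In liver, Tat averaged 1947 CPM with the combination, 2144 with cisplatin and 573.4 with CBLB502. Alb averaged 44998, 48902 and 37793 CPM in these liver arms. The part of cells or RNA from liver in the kidney values of Tat and Igfbp1 was not tested.

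Ppargc1a (ENSMUSG00000029167, chromosome 5, 51454250 to 51567704) encodes PGC-1α, a coactivator of gluconeogenic and mitochondrial genes. In liver it had 7.06, 15.8 and 9.51 CPM with the combination, 22.6, 22.98 and 5.89 with cisplatin, 3.44, 3.98 and 1.83 with CBLB502, and 1.51, 2.09 and 2.72 in control, the last from 15, 27 and 27 counts. Every library of the first 2 arms lay above every library of the last 2. It rose 5.56-fold in cisplatin against CBLB502 (2.48 ± 0.511, adjusted p = 0.0107), 8.14-fold in cisplatin against control (3.02 ± 0.552, adjusted p = 0.00109) and 5.12-fold in the combination against control (2.36 ± 0.543, adjusted p = 0.00526). The combination against CBLB502 missed the threshold (1.81 ± 0.499, adjusted p = 0.0534), and so did cisplatin against CBLB502 without CBLB502 library 3 (adjusted p = 0.0563). In kidney its CPM were 20.97, 27.5 and 28.1 with the combination, 7.06, 7.87 and 31.3 with cisplatin, 38.1, 35.3 and 25.9 with CBLB502, and 16.2, 24.2 and 19.2 in control. Cisplatin libraries 4 and 5 were the lowest of the 12 kidney libraries, while library 6 lay above the combination range. Over all 12 kidney libraries edgeR called Ppargc1a in no comparison, while DESeq2 called it lower in cisplatin against CBLB502 (−1.16, adjusted p = 0.0421; edgeR −1.10 ± 0.466, adjusted p = 0.0974). Without cisplatin library 6 it fell in cisplatin against control (−1.42 ± 0.222, adjusted p = 0.000249) and against CBLB502 (−2.15 ± 0.227, adjusted p = 1.57e-05). The gene overlaps 4 other annotated genes, 3 of them on its own strand, so its counts are uncertain to that extent.

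Pdk4 (ENSMUSG00000019577, chromosome 6, 5483351 to 5496309) encodes a kinase that switches off pyruvate dehydrogenase and so spares glucose. The combination had 77.6, 117.4 and 185.5 CPM in kidney, cisplatin 756.8, 562.8 and 55.9, CBLB502 13.6, 12.5 and 10.4, and control 26.05, 6.355 and 18.7. All libraries that had received cisplatin lay above all that had not, and cisplatin library 6 lay below the combination range. Pdk4 rose 10.4-fold in the combination against CBLB502 (3.38 ± 0.774, adjusted p = 0.00862) and 37.7-fold in cisplatin against CBLB502 (5.24 ± 0.845, adjusted p = 0.00128). Against control the folds were 7.45 with the combination (2.91 ± 0.764, adjusted p = 0.0112) and 26.9 with cisplatin (4.76 ± 0.83, adjusted p = 0.00102). In liver Pdk4 was low, with 2.92, 2.48 and 3.80 CPM in the combination, 2.53, 3.73 and 4.21 with cisplatin, 1.24, 1.26 and 1.81 with CBLB502, and 8.58, 4.18 and 0 in control, the last from 85, 54 and 0 counts. The edgeR fit of the 12 liver libraries called it in no comparison, and the control libraries spanned the whole range of the treated ones. In cisplatin against CBLB502, where the libraries did not overlap, that fit gave 1.28 ± 0.862 (adjusted p = 0.367) and a fit of the 9 treated libraries alone, chosen after seeing the data, called it higher (1.23, adjusted p = 0.0224).

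Angptl4 (ENSMUSG00000002289, chromosome 17, 33773750 to 33781830) encodes a secreted inhibitor of lipoprotein lipase that PPAR factors and glucocorticoids both raise. Kidney CPM were 162.9, 215.1 and 249.7 with the combination, 460.7, 570.5 and 114.5 with cisplatin, 16.4, 16.3 and 27.2 with CBLB502, and 69.9, 12.4 and 30.7 in control. As with Pdk4, every cisplatin-treated library lay above every other and cisplatin library 6 was the lowest of its arm. Angptl4 rose 10.5-fold in the combination against CBLB502 (3.39 ± 0.651, adjusted p = 0.0034) and 19.1-fold in cisplatin against CBLB502 (4.26 ± 0.678, adjusted p = 0.00121). It rose 5.55-fold with the combination (2.48 ± 0.629, adjusted p = 0.00928) and 10.1-fold with cisplatin (3.35 ± 0.652, adjusted p = 0.00199) against control. Adipocytes express Angptl4. The 6 adipocyte markers (Adipoq, Plin1, Fabp4, Cidec, Lep, Cfd), none of them at 0 in a kidney arm, summed to 79 to 328.5 CPM in treated kidneys, against 3828, 96.35 and 1293 CPM in control kidneys, where Angptl4 had the same order. Of the other members, Pdk4 and Lpin1 had that order in control kidneys too. The part of adipocytes in the control values of these genes was not tested. In liver Angptl4 had 125.2, 107.6 and 165.5 CPM with the combination, 24.2, 32.45 and 121.3 with cisplatin, 32.2, 21.2 and 60.3 with CBLB502, and 25.7, 11.7 and 58.5 in control. Cisplatin library 3 stood with the combination libraries and apart from its own arm. In the edgeR fit of the 12 liver libraries it was called in the combination against control alone (2.06 ± 0.687, 4.15-fold, adjusted p = 0.0328), a call lost in 4 of 12 fits that left out 1 library and with median-of-ratios scaling (1.76, adjusted p = 0.0603).

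Lpin1 (ENSMUSG00000020593, chromosome 12, 16535669 to 16646966) encodes a phosphatidate phosphatase that also works with PGC-1α as a coactivator. In liver it had 507.4, 545.9 and 497.5 CPM with the combination, 66.5, 247.3 and 155.2 with cisplatin, 62.7, 129.7 and 27.3 with CBLB502, and 15.85, 10.8 and 12.1 in control. The combination libraries lay far above the highest library of any other arm, and the control libraries lay below all. Lpin1 rose 7.06-fold in the combination against CBLB502 (2.82 ± 0.554, adjusted p = 0.0116), a call lost without CBLB502 library 1 (adjusted p = 0.0694). Against control it rose 40.1-fold with the combination (5.33 ± 0.625, adjusted p = 8.27e-05), 12.1-fold with cisplatin (3.601 ± 0.578, adjusted p = 0.000473) and 5.68-fold with CBLB502 (2.51 ± 0.552, adjusted p = 0.00593). Cisplatin against CBLB502 gave 1.09 ± 0.523 (adjusted p = 0.197), with overlapping libraries. In kidney the range was narrower: 88.3, 63.3 and 70.4 CPM with the combination, 70.4, 41.2 and 45.97 with cisplatin, 27.8, 40.45 and 32.2 with CBLB502, and 38.1, 16.7 and 26.55 in control. It rose 2.21-fold in the combination against CBLB502 (1.14 ± 0.294, adjusted p = 0.0153) and, against control, 2.73-fold with the combination (1.45 ± 0.298, adjusted p = 0.00282) and 1.94-fold with cisplatin (0.96 ± 0.295, adjusted p = 0.0228). The first and the last of these were each lost in 3 of 12 fits that left out 1 library.

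Fkbp5 (ENSMUSG00000024222, chromosome 17, 28399094 to 28517527) encodes a co-chaperone that lowers the glucocorticoid receptor's affinity for its hormone and is itself induced by that receptor. In liver it had 245, 227.7 and 206.6 CPM with the combination, 77.3, 114.1 and 112.3 with cisplatin, 14.4, 26.4 and 17.8 with CBLB502, and 15.1, 6.81 and 6.24 in control. The combination, cisplatin and CBLB502 libraries formed 3 separate levels in that order, and CBLB502 overlapped control only through control library 1. Fkbp5 rose 11.6-fold in the combination against CBLB502 (3.54 ± 0.374, adjusted p = 0.000519) and 5.18-fold in cisplatin against CBLB502 (2.37 ± 0.356, adjusted p = 0.00235). Against control it was 24.1-fold higher with the combination (4.59 ± 0.396, adjusted p = 1.41e-05), 10.8-fold higher with cisplatin (3.43 ± 0.376, adjusted p = 4.01e-05) and 2.08-fold higher with CBLB502 (1.06 ± 0.349, adjusted p = 0.0413). The last call was lost in 7 of 12 fits that left out 1 library and with median-of-ratios scaling (0.78, adjusted p = 0.138) or DESeq2 (0.80, adjusted p = 0.0904). In kidney Fkbp5 had 309.8, 305 and 275.5 CPM with the combination, 403.5, 384.7 and 85.5 with cisplatin, 43.9, 48.3 and 46.6 with CBLB502, and 22.4, 30.9 and 43.6 in control. Libraries that had received cisplatin lay above all others, and cisplatin library 6 lay well under the remaining 5. Fkbp5 rose 6.41-fold in the combination against CBLB502 (2.68 ± 0.46, adjusted p = 0.0018) and 6.29-fold in cisplatin against CBLB502 (2.65 ± 0.459, adjusted p = 0.00181). Against control the rises were 9.18-fold with the combination (3.20 ± 0.472, adjusted p = 0.000343) and 9.01-fold with cisplatin (3.17 ± 0.471, adjusted p = 0.000385). Fkbp5 overlaps 4 annotated genes, 2 of them on its own strand.

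Tsc22d3 (ENSMUSG00000031431, chromosome X, 140539528 to 140600659) encodes GILZ, a glucocorticoid-induced leucine zipper protein that restrains inflammatory signalling. In kidney it had 89.9, 70.7 and 83.7 CPM with the combination, 19.6, 28.9 and 57.0 with cisplatin, 23.5, 29.4 and 27.3 with CBLB502, and 19.6, 19.2 and 29.6 in control. The combination libraries lay above all others, and the remaining arms overlapped each other. Tsc22d3 rose 3.04-fold in the combination against CBLB502 (1.61 ± 0.328, adjusted p = 0.00469) and 3.57-fold against control (1.84 ± 0.332, adjusted p = 0.00131). Cisplatin gave 0.40 ± 0.32 against CBLB502 (adjusted p = 0.382) and 0.63 ± 0.324 against control (adjusted p = 0.145). In liver its CPM were 137.4, 126.7 and 121.4 with the combination, 11.02, 11.05 and 87.0 with cisplatin, 40.4, 41.6 and 62.55 with CBLB502, and 19.9, 35.1 and 115.4 in control. Again the combination was highest, but cisplatin library 3 was far above libraries 1 and 2 of its arm, and control library 3 far above its own. The edgeR fit of the 12 liver libraries called Tsc22d3 in no comparison. Without cisplatin library 3 it fell in cisplatin against control (−2.33 ± 0.587, adjusted p = 0.0068) and against CBLB502 (−2.13 ± 0.579, adjusted p = 0.017).

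**Figure D2:**
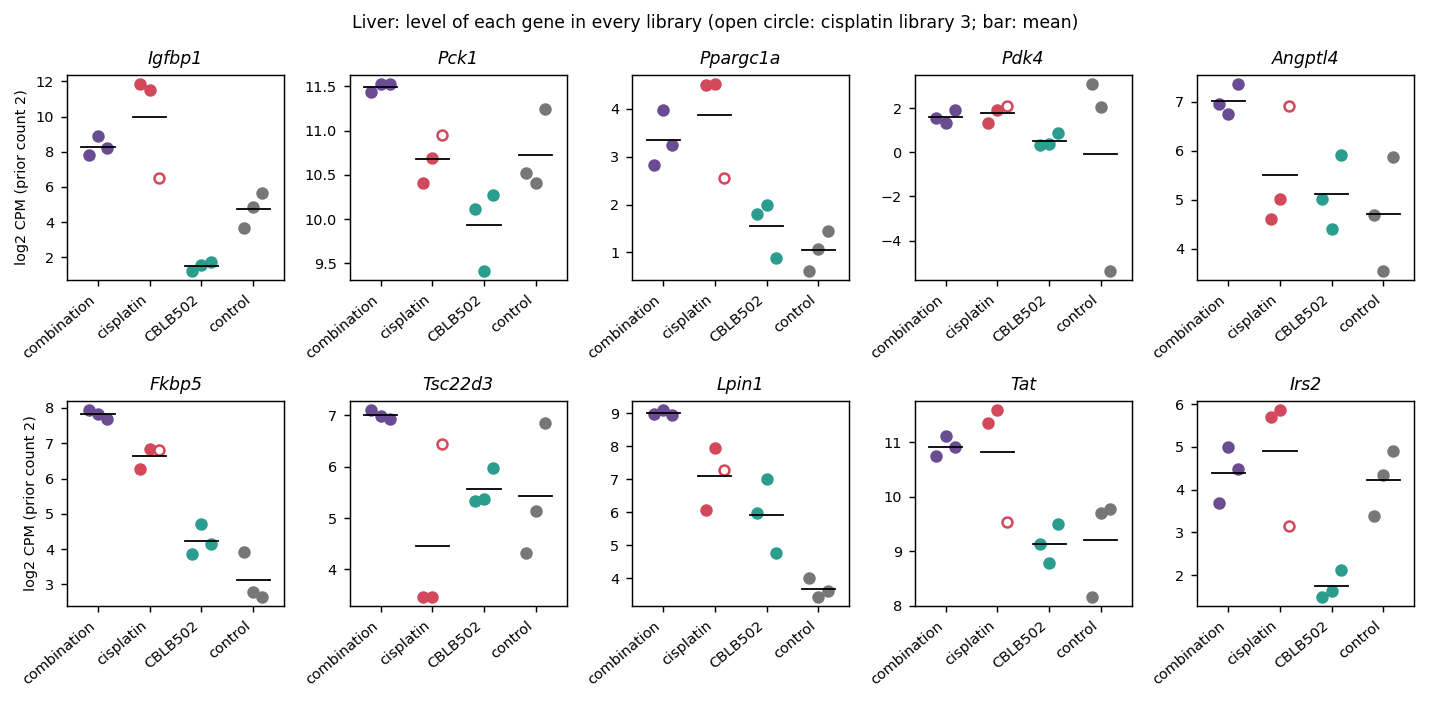
Log2 CPM (prior count 2) of the 10 genes in the 12 liver libraries, by arm, with bars at the arm means and cisplatin library 3 as an open circle. The combination libraries lie close together in Pck1, Fkbp5, Tsc22d3 and Lpin1, and the open circle lies apart from the filled cisplatin points in Igfbp1, Ppargc1a, Angptl4, Tsc22d3, Tat and Irs2.

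**Figure D3:**
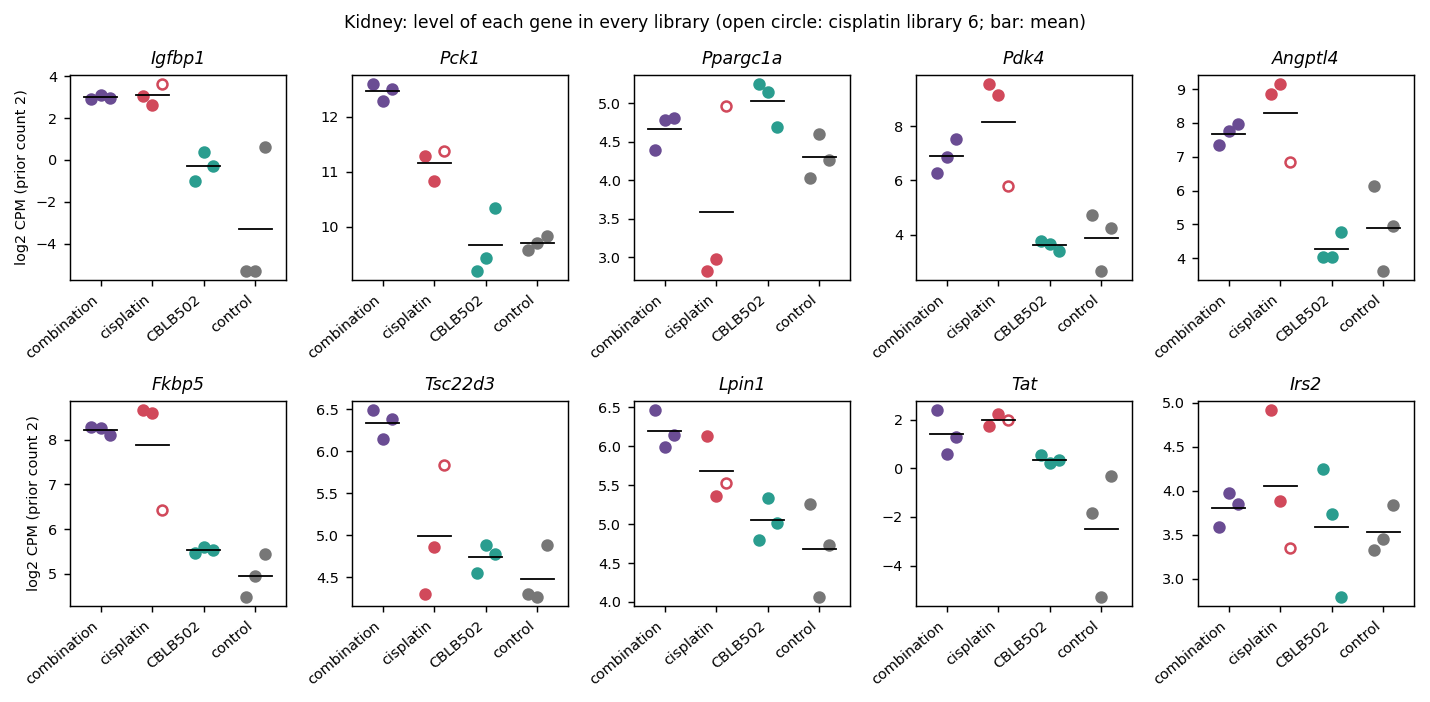
Log2 CPM (prior count 2) of the 10 genes in the 12 kidney libraries, drawn as for liver, with cisplatin library 6 as an open circle. Pck1 and Tsc22d3 are highest in the combination, and the open circle lies apart from the filled cisplatin points in Ppargc1a, Pdk4, Angptl4, Fkbp5 and Tsc22d3.

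The combination against cisplatin asks what CBLB502 given before the drug changed. Over all libraries edgeR called 0 of the 10 genes in either organ, where 0.993% of all genes were called higher and 2.58% lower in liver and 0.00492% higher and 0% lower in kidney. In liver 5 members had an unadjusted p under 0.05 (3790 of all genes did): Igfbp1 had a log2 fold change of −2.77 ± 0.927, and Pck1 (0.80 ± 0.297), Fkbp5 (1.16 ± 0.343), Tsc22d3 (1.82 ± 0.795) and Lpin1 (1.73 ± 0.532) were positive, with adjusted p of 0.0814 to 0.215. The libraries of Pck1, Fkbp5, Tsc22d3 and Lpin1 did not overlap between the arms, and the share of all genes without overlap was not counted. DESeq2 called 3 members in liver: Igfbp1 (−2.82), Fkbp5 (1.11) and Lpin1 (1.67). Its own background there was 849 genes higher and 1670 lower of 17278. In kidney 3 members had an unadjusted p under 0.05 (2614 of all genes did): Pck1 (1.28 ± 0.282), Tsc22d3 (1.21 ± 0.324) and Pdk4 (−1.85 ± 0.727). DESeq2 called 2 of these, Pck1 (1.25) and Tsc22d3 (1.19), where it called 177 of 13663 genes higher and 449 lower.

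Each of the 24 libraries was left out in turn, and a cisplatin library in each organ moved these counts most. Set beside the group means of log2 CPM, liver cisplatin library 3 lay nearer the combination than its own arm in 6 of 10 members and kidney cisplatin library 6 in 7 of 10, against 1 to 5 of 10 for the other libraries of these arms. Nearer does not mean within the combination range. Of these members, liver library 3 lay within it in Angptl4 alone, between the arms in Tsc22d3, and below it in Igfbp1, Ppargc1a, Tat and Irs2. Kidney library 6 lay within it in none of them, and in Fkbp5 it lay below all other libraries of both arms. The neutrophil markers (S100a8, S100a9, Mpo, Ly6g, Retnlg) summed to 0 to 0.5129 CPM in combination livers, with Ly6g at 0, and to 24.9, 34.9 and 1.502 CPM in cisplatin livers 1 to 3, with Mpo at 0. In kidney they summed to 0.0837 to 1.51 CPM with the combination, with Mpo and Ly6g at 0, and to 5.74, 24.4 and 0.990 CPM in cisplatin libraries 4 to 6, with Mpo at 0. The macrophage markers, none at 0, summed to 10.4 to 16.05 CPM in combination livers and 15.0, 13.2 and 58.9 CPM in cisplatin livers. The proximal tubule markers (Slc34a1, Slc22a6, Lrp2, Slc5a2, Kap), none at 0, summed to 11351 to 13566 CPM in combination kidneys and 9189, 4863 and 14319 CPM in cisplatin kidneys. Liver cisplatin library 3 lay apart from its arm in the neutrophil and macrophage sums, nearer the combination in the first and farther from it in the second. That library had 0 CPM of the proximal tubule markers, against 18.7 and 30.6 CPM in cisplatin livers 1 and 2. Combination livers had 17.05 to 19.06 CPM of them, and CBLB502 livers 1 to 3 had 0.267, 31.5 and 38.5 CPM. Kidney cisplatin library 6 was the lowest of its arm in neutrophil markers and the highest in proximal tubule markers, where library 5 was the lowest. The part of such cells in the members' values was not tested.

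Without cisplatin library 3, 6 of the 10 genes were called in liver between the combination and cisplatin, 4 higher and 2 lower, against 12.5% of all genes higher and 10.6% lower. Called genes in the whole table numbered 4278 without this library and 640 with it. Higher in the combination were Tsc22d3 (3.56 ± 0.624, adjusted p = 0.00203), Angptl4 (2.24 ± 0.602, adjusted p = 0.02), Fkbp5 (1.26 ± 0.37, adjusted p = 0.0306) and Pck1 (0.96 ± 0.297, adjusted p = 0.0385). Lower were Igfbp1 (−3.32 ± 0.457, adjusted p = 0.000481) and Irs2 (−1.27 ± 0.403, adjusted p = 0.0414). Over all libraries both genes rose in the combination and in cisplatin against CBLB502. In cisplatin against control Irs2 was also called without this library (1.46 ± 0.41, adjusted p = 0.0124).

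Without cisplatin library 6, 4 of the 10 genes were called in kidney between the combination and cisplatin, 3 higher and 1 lower, against 12% of all genes higher and 10.3% lower, with 4679 called genes in the whole table and 1 with this library. Higher in the combination were Ppargc1a (1.77 ± 0.223, adjusted p = 0.000223), Tsc22d3 (1.75 ± 0.231, adjusted p = 0.000307) and Pck1 (1.39 ± 0.311, adjusted p = 0.00786), and Pdk4 was lower (−2.38 ± 0.451, adjusted p = 0.00307). Pck1 and Tsc22d3 were thus called higher in both organs without those libraries. The counts without libraries 3 and 6 were singled out after their values were seen and describe the remaining libraries.

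**Figure D4:**
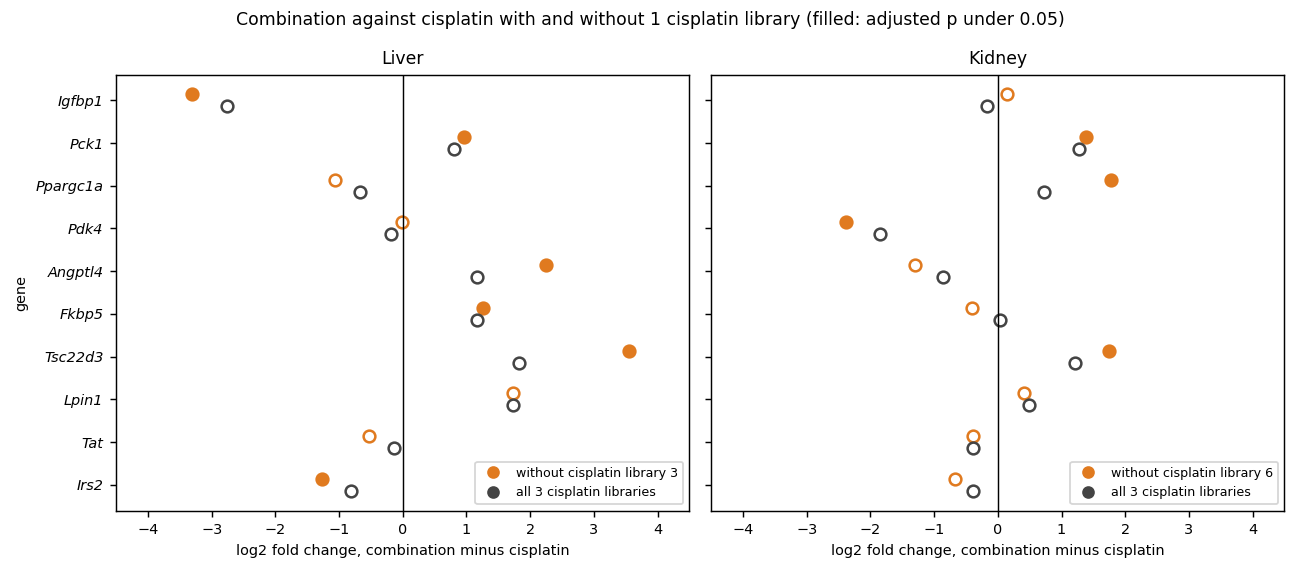
Log2 fold changes of the combination minus cisplatin for the 10 genes in liver (left) and kidney (right), without the cisplatin library named in the legend (orange) and with all 3 (dark), filled where the adjusted p was under 0.05. No dark point is filled, while 6 orange points are filled in liver and 4 in kidney.

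The interaction sets the combination against the sum of both single treatments on the log2 scale (combination minus CBLB502, minus cisplatin plus control). In liver it was called for 1 of the 10 genes, Pck1, whose combination level lay above that sum (1.59 ± 0.42, adjusted p = 0.0191), against 21.7% of all genes called in either direction. All liver genes had a median interaction of −0.23, which moved to −0.02 with median-of-ratios scaling. The Pck1 call was lost without CBLB502 library 2 or combination library 2 or 3 (adjusted p up to 0.0619). In kidney edgeR called 0 of the 10, against 8.01% of all genes. The single unadjusted p under 0.05 there was again that of Pck1 (1.24 ± 0.394, adjusted p = 0.0772), against 5124 of 20341 genes. DESeq2 called Pck1 (1.27, adjusted p = 0.0136), and over all genes 1315 higher and 1855 lower of 20931. The other 9 members had liver interactions of −1.22 to 2.06 and kidney interactions of −2.27 to 0.98, none called. Leaving out cisplatin library 3 gave 3 calls in liver, where 11.9% of all genes were then called higher and 18.5% lower. Leaving out control library 3 gave 2. In kidney 5 members were called without cisplatin library 6, against 11% of all genes higher and 14.2% lower. Without CBLB502 library 6 or control library 3, 1 member was called in kidney.

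The organs differed in the size of the cisplatin effect on Pdk4, Pck1, Ppargc1a and Lpin1. The log2 fold change of cisplatin against control was compared between kidney and liver in a fit of all 24 libraries, and 4 of the 10 genes differed, against 14.2% of all genes. The effect was greater in kidney for Pdk4 (kidney minus liver 5.07 ± 1.16, adjusted p = 0.00646) and Pck1 (1.60 ± 0.432, adjusted p = 0.0175). It was greater in liver for Ppargc1a (−3.32 ± 0.774, adjusted p = 0.00735) and Lpin1 (−2.59 ± 0.64, adjusted p = 0.0103). Without liver control library 3 the Pck1 difference had an adjusted p of 0.0537. For Fkbp5 the organ difference was −0.24 ± 0.582 (adjusted p = 0.902), and for Angptl4 it was 2.49 ± 0.962 (adjusted p = 0.0899). For the combination against CBLB502, 1 of the 10 differed, against 6.96% of all genes: Irs2 (−2.69 ± 0.767, adjusted p = 0.0382), with log2 fold changes of 0.10 in kidney and 2.72 in liver. That call was lost in 12 of 24 fits that left out 1 library. DESeq2 called 5 members, where it called 1658 of 17686 genes higher and 1314 lower. For the combination against cisplatin edgeR and DESeq2 called 0 members, where edgeR called 0.964% of all genes. An unadjusted p under 0.05 was found for 1 member and for 2950 of 21570 genes. The count of called members was 2 without liver cisplatin library 3 and 1 without kidney cisplatin library 6.

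Levels of different genes were compared as CPM per kb of gene length, on a scale common to both organs. With the combination, Pck1 was the highest of the 10 in both organs, at 993.8 ± 112 in kidney and 998.7 ± 29.7 in liver (SD, n = 3 each). In kidney with the combination the next were Angptl4 (35.6 ± 7.26), Pdk4 (21.7 ± 9.26) and Fkbp5 (18.9 ± 1.25), of which Pdk4 overlapped both neighbours, and the lowest was Tat (0.765 ± 0.496). In liver with the combination Tat stood beside Pck1 (960.3 ± 120, overlapping it), then Igfbp1 (255 ± 97.4) and Lpin1 (61.7 ± 3.16), and the lowest was Pdk4 (1.03 ± 0.221). With cisplatin Igfbp1 was the highest of the 10 in liver by its mean (1800 ± 1530), but its libraries overlapped those of Tat (1099 ± 629) and Pck1 (599 ± 116). In CBLB502 livers Igfbp1 had rank 7 of 10, at 2.28 ± 0.408. In control kidneys Pck1 led (142.9 ± 15), and Tat was the lowest at 0.0841 ± 0.0982.

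Between the organs, control kidneys had 1 of the 10 genes higher and 5 lower than control livers, against 17.2% of all genes higher and 16.7% lower. The higher was Ppargc1a (kidney minus liver 2.16 ± 0.578, adjusted p = 0.00679) and the lower ones were Tat (−12.02 ± 0.965, adjusted p = 1.45e-08), Igfbp1 (−6.95 ± 1.20, adjusted p = 0.000153), Tsc22d3, Pck1 and Irs2. Averaged over the treated arms, 1 gene was higher in kidney and 6 lower, against 30.7% and 22.8% of all genes. The higher was Pdk4 (4.18 ± 0.496, adjusted p = 4.32e-07), and Lpin1 joined the lower ones (−2.81 ± 0.272, adjusted p = 2.36e-08). The log2 difference of Pck1, kidney minus liver, was −0.56 ± 0.176 in the treated arms and −2.14 ± 0.317 in control. The control difference of Tsc22d3 was −2.40 ± 0.677, a call lost without liver control library 3 (−1.35, adjusted p = 0.126).

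**Figure D5:**
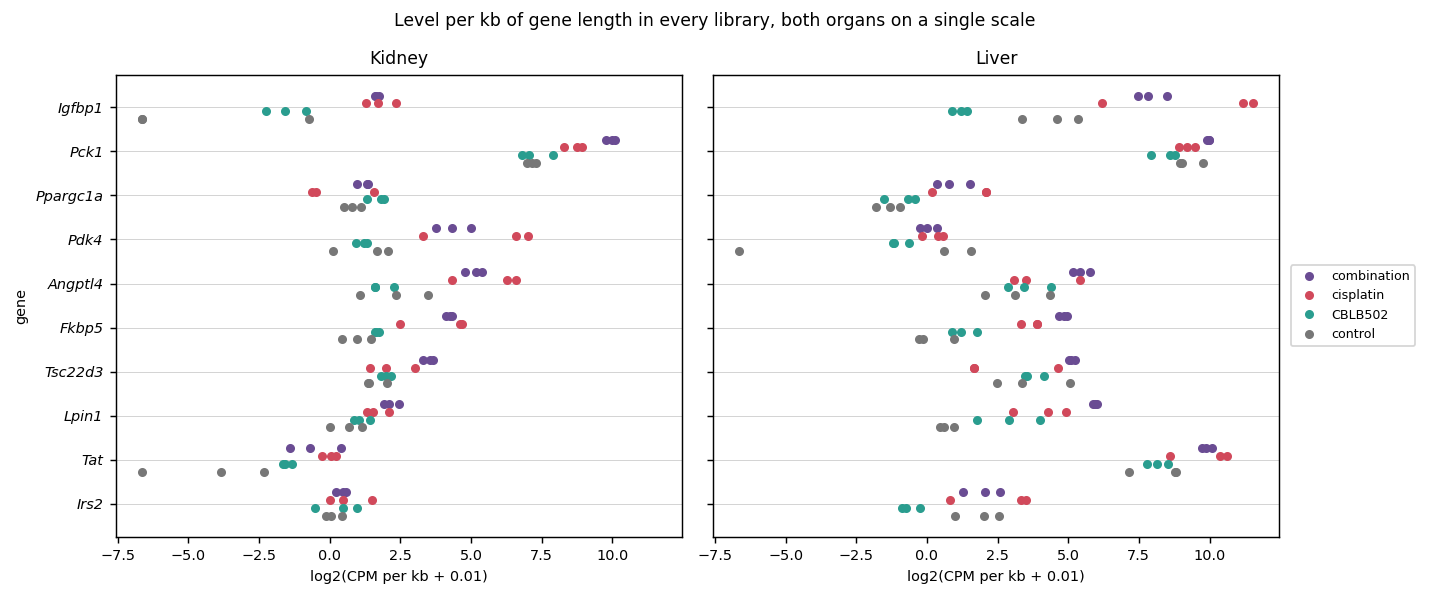
Level of each gene as log2(CPM per kb + 0.01) in the kidney (left) and liver (right) libraries on the same axis, by arm in colour. Pck1 is near 10 in the combination libraries of both organs, Tat and Igfbp1 lie far lower in kidney than in liver, and the leftmost points are libraries with no count.

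Other genes of the pathway were counted from lists of textbook members that hold none of the 10, drawn up with earlier results of these data known. Of 15 other glucocorticoid-induced genes, 13 rose and 0 fell in kidney with the combination against CBLB502, and 10 rose and 0 fell in liver. Over all genes 14.9% were called higher and 8.98% lower in kidney, and 2.88% and 3.86% in liver, and these shares hold for the other lists in this comparison too. Their median log2 fold changes were 1.87 in kidney and 1.57 in liver, against −0.02 and 0.02 over all genes. In kidney they included Sgk1, a kinase that promotes sodium uptake (2.12 ± 0.261, adjusted p = 0.000303), Dusp1, a phosphatase of MAP kinases (2.41 ± 0.265, adjusted p = 0.000179), and Gadd45b (2.60 ± 0.429, adjusted p = 0.00146). In liver they included Zbtb16, a transcription factor (2.03 ± 0.235, adjusted p = 0.000659), the metallothionein Mt1 (6.52 ± 0.80, adjusted p = 0.000852) and Gadd45b (5.71 ± 0.556, adjusted p = 0.00038). Metallothioneins and Gadd45b also respond to metals, inflammation and DNA damage. With cisplatin against CBLB502, 12 of the 15 rose in kidney and 9 in liver, and 0 fell, against 18.5% of all genes higher and 10.2% lower in kidney and 7.7% and 4.84% in liver. Between the combination and cisplatin 0 were called in kidney, and in liver 1 was, Zbtb16 (1.05 ± 0.228, adjusted p = 0.0326).

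Of 13 genes of gluconeogenesis and its control, 6 rose and 0 fell in kidney with the combination against CBLB502, and 3 rose and 0 fell in liver. With cisplatin against CBLB502, 5 rose and 1 fell in kidney, and 5 rose and 0 fell in liver. With the combination, Foxo3 (1.46 ± 0.185, adjusted p = 0.000357), the transcription factor Cebpb (2.80 ± 0.505, adjusted p = 0.0024) and the glucose-6-phosphate transporter Slc37a4 (1.18 ± 0.282, adjusted p = 0.0109) rose in kidney. Foxo1 (1.48 ± 0.19, adjusted p = 0.00112), pyruvate carboxylase, Pcx (1.04 ± 0.205, adjusted p = 0.0116), and Cebpb (1.53 ± 0.415, adjusted p = 0.0489) rose in liver. Of 11 fasting lipid genes controlled by PPARα, 5 rose in kidney and 0 in liver, and 0 and 1 fell, and with cisplatin against CBLB502 7 rose in kidney and 0 in liver, and 0 and 1 fell. The kidney genes included the acyl-CoA thioesterase Acot1 (2.32 ± 0.219, adjusted p = 0.000134) and the lipid droplet protein Plin5 (2.77 ± 0.401, adjusted p = 0.000702). Ucp2, a mitochondrial carrier, rose in kidney (1.77 ± 0.261, adjusted p = 0.000769) and fell in liver (−1.61 ± 0.269, adjusted p = 0.00528), and the organs differed (kidney minus liver 3.31 ± 0.376, adjusted p = 6.37e-05). Of 10 genes of insulin signalling or induced by insulin, 1 rose (Akt2, 0.61 ± 0.185, adjusted p = 0.033) and 1 fell (Igf1r, −0.58 ± 0.161, adjusted p = 0.0231) in kidney, which is near the share over all genes. In liver 0 rose and 1 fell, the lipogenic factor Srebf1 (−2.47 ± 0.435, adjusted p = 0.00695). With cisplatin against CBLB502 1 rose and 1 fell in kidney, and 0 rose and 2 fell in liver. Of 9 genes of the receptor, its chaperones and its ligand, including Nr3c1, the glucocorticoid receptor itself, 0 rose in either organ, and 1 fell in kidney and 0 in liver. The kidney gene was Serpina6, the plasma carrier of glucocorticoids, at 0 in all combination libraries, against 0.1686 to 0.3531 CPM in CBLB502 libraries. With cisplatin against CBLB502, 0 rose and 3 fell in kidney: Serpina6, Nr3c1 (−0.56 ± 0.178, adjusted p = 0.0354) and the coactivator gene Ncoa2 (−1.24 ± 0.395, adjusted p = 0.0361). In liver 0 rose and 1 fell, the mineralocorticoid receptor gene Nr3c2 (−1.35 ± 0.38, adjusted p = 0.0392).

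Against control, 13 of the 15 glucocorticoid-induced genes rose in kidney with the combination and 14 with cisplatin, and 12 and 11 rose in liver, where 1 fell with the combination. Over all genes 21.5% were called higher in kidney with the combination and 24.1% with cisplatin, and 23.8% and 25.6% in liver. With CBLB502 alone 0 rose and 1 fell in kidney, and 6 rose and 3 fell in liver, against 11.4% of all genes higher and 7.77% lower in kidney and 18.3% and 9.48% in liver. Nr3c1 rose in liver against control with each treatment, by 1.25 ± 0.19 with the combination, 1.27 ± 0.19 with cisplatin and 1.22 ± 0.19 with CBLB502 (adjusted p 0.0003 to 0.000784), and in kidney with CBLB502 by 0.56 ± 0.179 (adjusted p = 0.0495).

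For 9 of the members the gene with the most similar pattern over the 8 group means is given here. It was sought among 14243 genes tested in both organs (predicted and clone-named genes left out), by the root mean square difference of centred log2 CPM. The closest match was Hamp, which encodes hepcidin, to Tat (0.17). Tsc22d3 was nearest to Extl1 (0.29), Irs2 to Irf2bp2 (0.36), Ppargc1a to Ttll11 (0.42), Angptl4 to Cbr1 (0.44), and Lpin1 to Zbtb16 of the list above (0.56). Fkbp5 was nearest to Retreg1 (0.57), Pdk4 to Spp1 (0.57) and Igfbp1 to Il1rn (1.64). The nearest match among the members themselves lay from 0.70 between Tsc22d3 and Pck1 to 2.85 between Igfbp1 and Tat for these 9. The members are far fewer than the 14243 genes searched, so these distances cannot be set against those above.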

How the data were processed

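RNA of liver and kidney was extracted with Trizol as total RNA and sequenced on Illumina libraries, per the labels' protocols. The deposited table gives whole-number read counts per gene, which the authors made from trimmed reads: cutadapt 1.9 and FastQC are named in the submitters' processing notes, while the aligner, counter, strand setting, build and annotation are not given in the sources used here. The authors also deposited FPKM values, which were used here only through 9 liver columns to obtain the gene length they imply, for levels per kb. Of 48 value columns, 9 were not used: the FPKM of treated kidney. The 9 treated kidney count columns carry the numbers 4 to 6, and were tied to their arm but to no single sample. Of the gene IDs, 99.65% stood in GENCODE vM21 (GRCm38), all 33156 on the same chromosome, 99.7% with a shared start or end, and 8 members with both. Coordinates are those of the deposited table, and 66 symbols stood on several IDs.

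Genes were filtered with filterByExpr, scaled by TMM and tested with edgeR 4.0.16 (quasi-likelihood, Benjamini-Hochberg adjustment over all tested genes, limma 3.58.1, R 4.3.3). The 12 libraries of an organ were fitted together, and all 24 (21570 genes) for comparisons between organs. Log2 CPM used a prior count of 2. DESeq2 1.42.0, median-of-ratios scaling, no filter, removal of mitochondrial rows, the replicate number as a block and leaving out each library were tried, and the scripts were tested on simulated data. Deviations of same-numbered libraries correlated at −0.169 to 0.176 over 18 liver pairs, 5 of them over 0.1, so the numbers were not taken to pair samples. The text gives the count over all 10 members in each comparison with their called values, up to 3 called genes per list with the lowest adjusted p (for the combination against CBLB502; other comparisons mostly by counts), and the gene nearest each member in its group means, of which 1 is not reported here. The members and lists were chosen with earlier results of these data known.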

Additional observations from a re-analysis of the deposited data

Results flagged for a closer look

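Among the 10 genes, 5 values stood out because the same contrast differed between kidney and liver in a test of the difference itself. For cisplatin against control, the log2 fold change in kidney minus that in liver was 5.07 for Pdk4, 1.60 for Pck1, −3.32 for Ppargc1a and −2.59 for Lpin1. For the combination against CBLB502, the difference was −2.69 for Irs2. The comparison with control also differs in the kind of library in both organs, and its part in the first 4 values was not tested.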

How the results depend on the processing

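Each comparison was refitted with DESeq2, with median-of-ratios scaling, with no filter, without mitochondrial rows and without each library, and the liver comparisons also with a replicate block. No value called over all libraries changed sign under any of these alternatives. Counts of the 10 genes past the threshold ranged, over fits without 1 library, from 2 to 5 for liver CBLB502 against control, 3 to 7 for liver combination against control, 0 to 6 for liver combination against cisplatin, 2 to 8 for liver combination against CBLB502, 3 to 6 for liver cisplatin against CBLB502, 0 to 3 for liver interaction, 0 to 2 for kidney CBLB502 against control, 0 to 4 for kidney combination against cisplatin, 0 to 5 for kidney interaction, 0 to 3 for the organ difference for combination against CBLB502, 0 to 2 for the organ difference for combination against cisplatin. The cause of these changes was not tested. The share of all genes called also moved in some of these fits and is not given beside each count. The ranges are thus no result about the members. DESeq2 called 3 of them in the combination against cisplatin in liver, 2 in kidney, 1 in the kidney interaction and 5 in the organ difference for the combination against CBLB502, and the 9 treated libraries fitted alone gave 1 in liver for the combination against cisplatin. The fits of 9 treated libraries alone and 6 control libraries alone were chosen after seeing the data. Over all genes, the combination against cisplatin had 640 calls in liver, against 2519 with DESeq2, 1471 with 9 treated libraries, and 390 each with no filter and with the replicate block. In kidney it had 1, against 626 with DESeq2 and 0 with the 9 treated libraries. DESeq2 called 2572 in place of 1209 for the combination against CBLB502 in liver, 4084 in place of 2247 for cisplatin against CBLB502 in liver, 3170 in place of 1629 for the kidney interaction, and 2972 in place of 1501 and 1188 in place of 208 for the organ differences of the combination against CBLB502 and against cisplatin. For the last, no filter gave 117. The 9 treated libraries gave 1820 and 3395 for the combination and cisplatin against CBLB502 in liver. Control kidney against control liver had 7311 calls, against 4834 from 6 control libraries alone and 3716 with a block.

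Values that missed the threshold and changed sign were as follows, in log2. With median-of-ratios scaling, Irs2 in liver for the combination against control was −0.146, and in kidney Pck1 for CBLB502 against control was −0.039, Fkbp5 for the combination against cisplatin −0.008, the interaction of Ppargc1a 0.051, and Lpin1 in control kidney against liver 0.055. DESeq2 gave −0.128, −0.020, −0.012, 0.030 and 0.061 for the same 5 values. With no filter, Pck1 in liver for cisplatin against control was 0.005, the interaction of Tat in liver −0.003, Fkbp5 in kidney for the combination against cisplatin −0.011 and the interaction of Angptl4 in kidney −0.029. Without mitochondrial rows the last was −0.014 and Lpin1 in control kidney against liver was 0.142. The 9 treated libraries alone gave −0.001 for Fkbp5 and the 6 controls alone gave 0.057 for Lpin1. With the replicate block, Tsc22d3 in liver for CBLB502 against control was 0.139.

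Leaving out 1 library moved these uncalled values across 0. In liver cisplatin against control, the range was Pck1 −0.208 to 0.261, Pdk4 −0.834 to 0.720, Angptl4 −0.141 to 1.701, Tsc22d3 −2.335 to 0.429. In liver CBLB502 against control, the range was Angptl4 −0.198 to 1.051, Tsc22d3 −0.628 to 0.830, Tat −0.556 to 0.062. In liver combination against control, the range was Pdk4 −1.020 to 0.535, Irs2 −0.159 to 0.566. In liver combination against cisplatin, the range was Tat −0.532 to 0.224. In liver cisplatin against CBLB502, the range was Angptl4 −0.424 to 1.149, Tsc22d3 −2.132 to 0.037. In liver interaction, the range was Fkbp5 −0.431 to 0.338, Tat −0.355 to 0.420. In kidney CBLB502 against control, the range was Pck1 −0.367 to 0.266, Irs2 −0.202 to 0.475. In kidney combination against cisplatin, the range was Igfbp1 −0.418 to 0.150, Fkbp5 −0.407 to 0.339, Irs2 −0.676 to 0.175. In kidney combination against CBLB502, the range was Irs2 −0.203 to 0.475. In kidney cisplatin against CBLB502, the range was Tsc22d3 −0.141 to 0.685, Irs2 −0.070 to 0.861. In kidney interaction, the range was Ppargc1a −0.355 to 1.041, Angptl4 −0.768 to 0.454, Lpin1 −0.148 to 0.453, Irs2 −0.861 to 0.014. In kidney against liver in control, the range was Lpin1 −0.308 to 0.239. In kidney against liver in mean of the 3 treated arms, the range was Angptl4 −0.327 to 0.181, Fkbp5 −0.045 to 0.201. In the organ difference for cisplatin against control, the range was Igfbp1 −2.667 to 5.933, Fkbp5 −0.728 to 0.161, Irs2 −0.840 to 0.133. In the organ difference for combination against CBLB502, the range was Tsc22d3 −0.082 to 0.281. In the organ difference for combination against cisplatin, the range was Tsc22d3 −2.295 to 0.003, Tat −0.889 to 0.211. 

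With the replicate block in liver, 8 of the 10 genes were called for the combination against control, 5 for cisplatin and 3 for CBLB502 against control, 6 for the combination and 4 for cisplatin against CBLB502, 0 for the combination against cisplatin and 1 in the interaction. The shares of all genes called with the block are not given beside these counts, which are no result about the members. The block added Pck1 (0.77, adjusted p = 0.0436) and Tsc22d3 (1.71, adjusted p = 0.0454) for the combination against control and Angptl4 (1.97, adjusted p = 0.0174) for the combination against CBLB502. With it Fkbp5 for CBLB502 against control (1.07, adjusted p = 0.066) and Tat for cisplatin against CBLB502 (1.87, adjusted p = 0.0643) were not called. In kidney the block was fitted only with the 6 control libraries of both organs, since the treated columns do not carry the labels' numbers. With 3 libraries an arm, single libraries decide several calls, and depth limits values near 0, such as Tat and Igfbp1 in control kidney.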
